A study of Arabidopsis thaliana with 42 samples.

Results

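The double mutant arp6vil1 was set against wild type in Arabidopsis thaliana seedlings grown at 22 °C. The comparison uses 4 of the 42 samples of the series, chosen by genotype and temperature as labelled: 2 RNA-seq libraries of arp6vil1 and 2 of wild type (WT). It covers 31414 of the 34262 features in the expression table, those that reached 1 scaled RPKM (defined below) in 2 or more of the 12 RNA-seq libraries. All plants were 14-day-old seedlings of the Col-0 ecotype. The arp6vil1 plants carry mutations in ARP6 and in VIL1, and the WT plants carry neither. The vil1 single mutant, which the titles give as vil1-1, and the arp6 single mutant were also used, both at 22 °C with 2 libraries each. They show how the double mutant differs from these single mutants. Whether they are its parent lines is not given. The labels give no allele for arp6 and name none for the double mutant, and the day length of the RNA-seq plants cannot be read from them. Whole seedlings were harvested at ZT-6, and total RNA was extracted. Nothing in the labels says that the 2 libraries of a group came from separate plantings, so the p-values measure the spread between these libraries, which may be technical. The other 30 samples are ChIP-seq and are not analysed here. The study set the double mutant beside arp6 to ask whether loss of VIL1 alters the expression programme of arp6 plants.

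ARP6 is an actin-related protein of the SWR1 complex, which places the histone variant H2A.Z into nucleosomes. Plants that lack it flower early and show features of warm-grown plants at cooler temperature. VIL1, also called VRN5, is a PHD-finger protein of the VEL family that works with Polycomb repressive complex 2, the enzyme complex that methylates histone H3 at lysine 27 and keeps genes silent, among them the flowering repressor FLC after winter.

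The mutated genes were read first. ARP6 stood at 0.990 and 0.979 scaled RPKM in the arp6vil1 libraries, against 13.7 and 12.5 in WT, a log2 change of -2.83 (SE 0.10, limma, Benjamini-Hochberg adjusted p = 2.46e-07). The arp6 single mutant held 0.422 and 0.223 and the vil1 single mutant 13.7 and 13.4, so both genotypes labelled arp6 were low for this gene and the others were not. VRN5 stood at 3.087 and 3.403 scaled RPKM in arp6vil1, against 6.38 and 6.13 in WT (log2 change -0.77, SE 0.08, adjusted p = 3.98e-05). The vil1 libraries held 4.88 and 5.15 of VRN5 transcript, so the gene was still transcribed in the single mutant, and its level does not check the vil1 genotype. ARP6 overlaps the neighbouring gene AT3G33530, and the counting strand is not given in the sources used here, so reads of overlapping genes cannot be told apart. The same holds for JAZ10, HCHIB, APR1, APR2, TCH3, PIE1, CLF, LHP1, ELF6, FIE, MSI1, VIN3, TOE3, PIF1, PIF7, HSFA1B, HSP101, RVE1, ELF3, LHCB3, LHCB2.3, PORB, SIG4, AT3G41979, U2.11, U2.1, TT4, SAG21, SRG3, BAM3 and OLEO2 below. It also holds for CASP1, U5.1b, AT3G08275, AT5G00760, MIR5630a, MIR5630b, AT5G46105 and AT2G36140 below.

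Scaled RPKM is the deposited RPKM (reads per length of gene and per size of library) divided by 1 factor per library, taken from 6525 nuclear protein-coding genes at RPKM 5 or more in all 12 RNA-seq libraries. The factors were 0.806 and 0.730 in arp6vil1, against 1.05 and 1.09 in WT, so the median coding gene took a smaller share of the double-mutant libraries. Chloroplast-encoded genes took 17.0% and 14.9% of the summed RPKM in arp6vil1, against 7.01% and 7.64% in WT. Nuclear rRNA genes took 6.50% and 9.49% in arp6vil1, against 0.852% and 0.913% in WT. Depth, recovered from the RPKM steps, was 86.3 and 102.8 M reads in arp6vil1, against 75.0 and 61.6 M reads in WT. Neither of these shares nor depth was tested as a cause of any change described here.

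**Figure D1:**
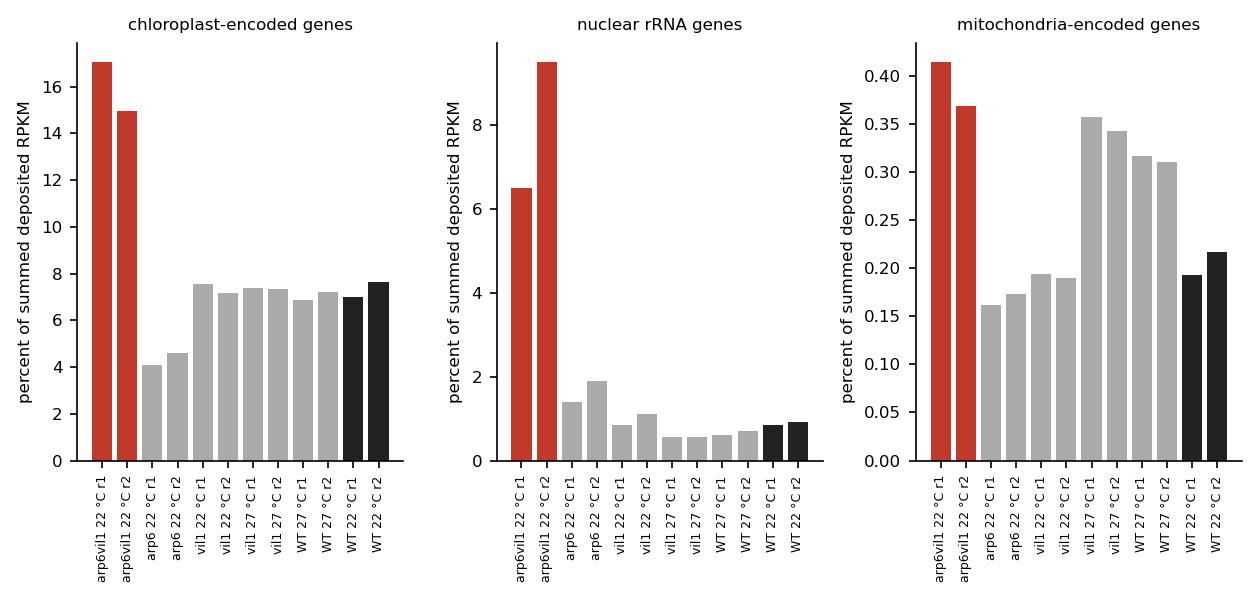
Share of the summed deposited RPKM held by chloroplast-encoded, nuclear rRNA and mitochondria-encoded genes, as percent on a linear axis, 1 bar per library. The 2 arp6vil1 bars are the highest of all 12 libraries in each panel; WT at 22 °C has the last 2 bars.

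Across all features tested, 4150 rose in arp6vil1 relative to WT (13.2%) and 12473 fell (39.7%), at an adjusted p under 0.05 in limma with no minimum change, 52.9% in all. The median log2 change of all features was -0.21, and the 2 groups did not overlap at 73.1% of features. These 2 counts depend on how the libraries are scaled. On deposited RPKM, 1551 rose and 19164 fell, whereas with each library centred on its median 14298 rose and 4486 fell, and the median of all features moved to -0.54 and 0.30. A member was therefore also read under 5 other scalings, a summary chosen after the data were seen: deposited RPKM, quantile normalization, median centring, removal of the trend with gene length, and scaling genes chosen by their mean. In every one of the 6 fits that held the feature, 1518 features rose (4.83%) and 4478 fell (14.3%). The length-trend fit held 29853 features. It left out those without a length in the reference table, the chloroplast- and mitochondria-encoded genes among them. Below, "under every scaling" means called the same way in each of these 6 fits that held the feature. The median of 9 of the 30 gene lists kept its sign in all 6: the jasmonate, sulfur, rapid-response, SWR1, Polycomb machinery, warm and shade, clock and plastid transcription lists below 0, and the seed list above it. The medians of the other lists took both signs across the scalings and set no direction against 0. Beside the median of all features a list could still keep its side. On deposited RPKM and with median centring, the expansin and xyloglucan median was -0.14 and 0.71, each time above that of all features. The nuclear photosynthesis median was -0.83 and 0.01, each time below it. Every list count against WT below is to be read beside the 13.2% of all features that rose and the 39.7% that fell.

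The share of genes called differed with expression level, and not in 1 direction throughout. Of the 1309 nuclear coding genes above a mean of 50 scaled RPKM in the 4 libraries, 52.3% rose and 21.8% fell, with a median log2 change of 0.30. Between 2 and 5 scaled RPKM, 6.46% of 7271 genes rose and 69.3% fell, with a median of -0.57. Between 10 and 20 scaled RPKM, 21.2% of 2836 genes rose and 34.9% fell, with a median of -0.09. In the lowest range, up to 2 scaled RPKM, 4.77% of 7836 genes rose and 22.3% fell, with a median of -0.08. The median was thus lowest between 2 and 5 scaled RPKM and highest above 50, and the lowest range did not continue the order. Changes are on log2(scaled RPKM + 1), a scale that understates those of low genes, and its part in this order was not tested. In bulk seedlings, fewer cells of a type and less RNA per cell cannot be told apart, here or in any result that follows.

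**Figure D2:**
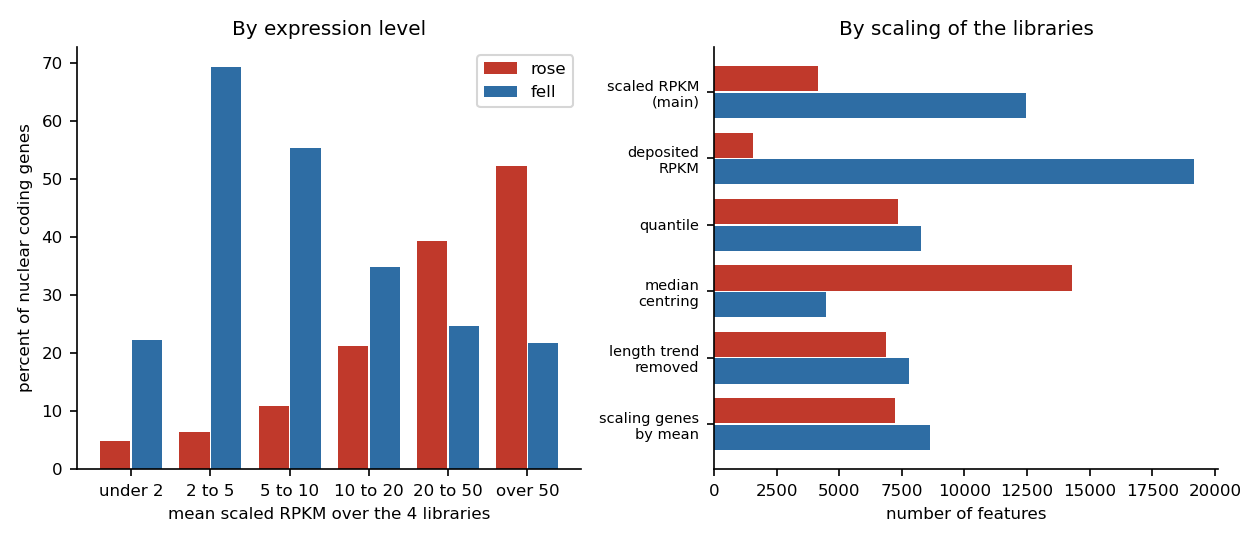
Left, percent of nuclear coding genes that rose or fell in arp6vil1 relative to WT, by mean scaled RPKM over the 4 libraries. Right, number of features that rose or fell under each scaling; the falls outnumber the rises in 5 of the 6 scalings and median centring turns the balance round.

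The steepest rise among named coding genes at 5 scaled RPKM or more was SUFE2, an activator of the plastid cysteine desulfurase that feeds iron-sulfur cluster assembly. SUFE2 had 69.1 and 70.0 scaled RPKM in arp6vil1, against 3.53 and 4.23 in WT (log2 change 3.86, SE 0.10, adjusted p = 8.86e-08). The vil1 libraries held 10.9 and 10.4 and the arp6 libraries 3.05 and 3.59, so the double mutant stood above both single mutants, with log2 differences of 2.60 (adjusted p = 4.70e-07) and 4.03 (adjusted p = 1.20e-08). M17, a late embryogenesis abundant protein, had 59.1 and 52.1 in arp6vil1, against 5.83 and 5.61 in WT (log2 change 3.07, SE 0.40, adjusted p = 0.000142). HSP23.6, a mitochondrial small heat shock protein, had 85.7 and 83.7 in arp6vil1, against 13.0 and 8.02 in WT (log2 change 2.93, SE 0.31, adjusted p = 4.06e-05). HSP23.6 was above vil1, at 42.6 and 42.7, by a log2 difference of 0.97 (adjusted p = 0.0221), and it stood at 2.13 and 1.04 in arp6.

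The other leading rises had log2 changes between 1.95 and 2.49. DI21, a drought-induced protein, had 63.4 and 64.5 scaled RPKM in arp6vil1 and 8.36 and 13.3 in WT. GRP-3, a glycine-rich wall protein that binds a wall-associated kinase, had 1539 and 1553 in arp6vil1 and 306 and 388 in WT. CRF6, a cytokinin response factor, had 214 and 209 in arp6vil1 and 46.3 and 47.6 in WT. Each of these 3 genes was also above both single mutants, where CRF6 stood at 51.0 and 51.8 in vil1 and at 15.81 and 10.03 in arp6. ELIP2, an early light-inducible protein that protects chloroplasts in strong light, had 27.8 and 28.6 in arp6vil1 and 6.04 and 7.16 in WT. BETA-TIP, a vacuolar water channel of seeds, had 8.80 and 9.10 in arp6vil1 and 1.12 and 1.19 in WT, though it overlaps 2 other genes. CYP89A6 (a cytochrome P450), GRP5 (a glycine-rich protein), LCR68 (of the defensin family) and PCR2 (a zinc and cadmium transport protein) completed the 12, and all 12 rose under every scaling. GRP5 and PCR2 did not pass against arp6 (log2 differences of 0.58, adjusted p = 0.116, and 0.52, adjusted p = 0.0749).

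Among the falls, JAZ7, a repressor of jasmonate signalling, had 2.23 and 1.96 scaled RPKM in arp6vil1, against 58.9 and 66.3 in WT (log2 change -4.36, SE 0.19, adjusted p = 7.71e-07). It was unlike vil1, at 56.9 and 57.8, and closer to arp6, at 0.168 and 0.758, which it exceeded by a log2 difference of 1.11 (adjusted p = 0.000397). MLP328, a major latex-like protein, had 18.89 and 17.83 in arp6vil1, against 279 and 216 in WT (log2 change -3.67, SE 0.15, adjusted p = 6.90e-07). MLP328 was high in both single mutants, at 191 and 190 in vil1 and at 350 and 303 in arp6, and was lower in arp6vil1 than in each (log2 differences of -3.31 and -4.08, adjusted p = 9.55e-07 and 5.05e-08). HSPRO2, which takes part in basal resistance to bacteria, had 9.34 and 10.1 in arp6vil1, against 151 and 85.7 in WT (log2 change -3.42, SE 0.21, adjusted p = 2.72e-06). RD26, a NAC factor of the dehydration response, had 4.17 and 4.16 in arp6vil1, against 51.7 and 46.2 in WT (log2 change -3.27, SE 0.10, adjusted p = 1.65e-07). Both were low in arp6 too, where HSPRO2 stood at 10.7 and 12.6 and RD26 at 4.88 and 5.02, and neither passed between the double mutant and arp6 (adjusted p = 0.310 and 0.0856).

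Ethylene response factors and a jasmonate-inducible regulator fell as well. ORA47, an AP2/ERF factor that drives jasmonate synthesis genes, had 4.62 and 5.20 scaled RPKM in arp6vil1, against 66.1 and 80.0 in WT (log2 change -3.64), and overlaps AT1G74929. ERF2 had 3.37 and 3.79 in arp6vil1, against 44.8 and 34.7 in WT (log2 change -3.14). ERF-1 had 9.43 and 9.99 in arp6vil1, against 82.8 and 78.4 in WT (log2 change -2.93), and in arp6 it had 8.19 and 8.91. Every WT value of these genes was several times every arp6vil1 value. MYB73, a MYB factor, had 5.60 and 7.13 in arp6vil1, against 64.4 and 46.6 in WT (log2 change -2.93), and overlaps AT4G37270. The 12 leading falls, which also hold JAZ9, MYC2, SDI1 and SHM7, fell under every scaling and were lower than in vil1 as well.

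**Figure D3:**
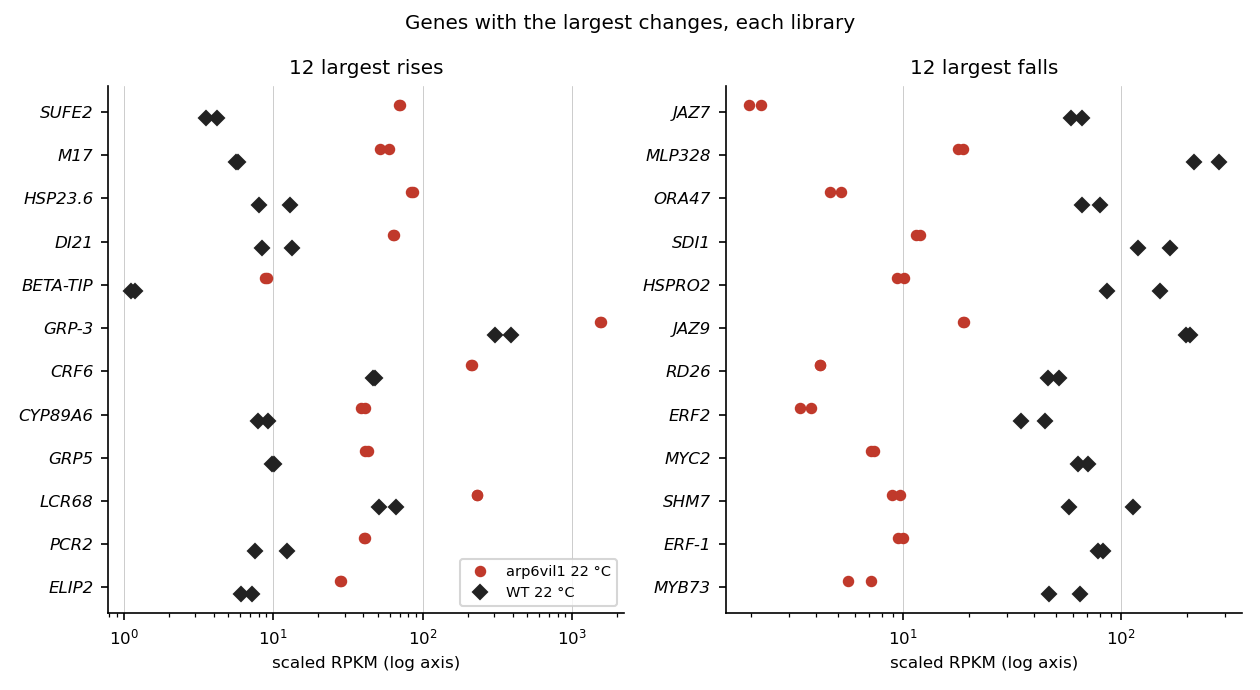
Scaled RPKM of the 12 largest rises and 12 largest falls among named nuclear coding genes, on a log axis, 1 point per library: red circles for arp6vil1, black diamonds for WT. The groups do not overlap at any of the 24 genes, and the pair of arp6vil1 points is mostly tighter than the pair of WT points.

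Jasmonate is a wound and defence hormone: its receptor destroys the JAZ repressors, which frees the factor MYC2 to switch on target genes, the JAZ genes and the synthesis genes among them. Of 28 jasmonate and ethylene defence genes tested, 20 fell, 3 rose and 5 did not pass, with a median log2 change of -1.63 beside -0.21 for all features, and 18 of the falls held under every scaling. Together these genes summed to 490 and 497 scaled RPKM in arp6vil1, against 2395 and 2318 in WT. MYC2 itself had 7.13 and 7.33 in arp6vil1, against 70.0 and 63.1 in WT (log2 change -3.04, SE 0.10, adjusted p = 2.46e-07), and overlaps AT1G32630. All 9 JAZ genes of the list fell. JAZ9 had 19.0 and 18.8 in arp6vil1, against 206 and 197 in WT (log2 change -3.35, SE 0.09, adjusted p = 8.86e-08), and JAZ10 had 2.17 and 2.03, against 11.8 and 10.8 in WT (log2 change -1.99, SE 0.10, adjusted p = 1.16e-06).

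The synthesis enzymes moved the same way. AOC2, an allene oxide cyclase, had 135 and 138 scaled RPKM in arp6vil1, against 939 and 938 in WT (log2 change -2.77, SE 0.12, adjusted p = 7.71e-07). AOS, the allene oxide synthase, had 149 in both arp6vil1 libraries, against 443 and 498 in WT (log2 change -1.66). LOX2, the chloroplast lipoxygenase that opens the pathway, had 10.5 and 10.4 in arp6vil1, against 61.5 and 34.3 in WT (log2 change -2.03), and the reductase OPR3 had 5.36 and 4.94, against 29.7 and 20.2 in WT (log2 change -2.05). The stored wound protein VSP2 had 13.4 in both arp6vil1 libraries, against 95.6 and 64.4 in WT (log2 change -2.46). The genes that rose are markers of the ethylene-linked defence branch: the defensin PDF1.2 had 4.61 and 3.68 in arp6vil1, against 0.663 and 1.02 in WT (log2 change 1.48, under every scaling), while HEL and HCHIB rose by 0.48 and 0.49, not under every scaling. Not all genes of that branch rose. ORA59, the ethylene-response factor that activates PDF1.2, did not pass (log2 change -0.07, adjusted p = 0.695). PDF1.2b, PDF1.3 and ERF1 (a different gene from ERF-1 above), also in the list, did not rise either. Without arp6vil1 replicate 1 or WT replicate 1, 1 gene of the list rose.

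The single mutants differed from the double mutant here. These comparisons share the arp6vil1 libraries with the one against WT. Set against vil1, 20 of the 28 genes were lower and 6 higher in arp6vil1 (median -1.68), where 36.6% of all features were lower and 20.2% higher (56.8% in all). Set against arp6, 15 were lower and 9 higher (median -0.52), where 33.2% of all features were lower and 49.7% higher (82.9% in all). The arp6 values of single genes went both ways. LOX2 had 572 and 519 in arp6 and 50.4 and 62.5 in vil1, beside 10.5 and 10.4 in the double mutant. JAZ9 and MYC2, like JAZ7, were low in arp6 too, JAZ9 at 11.9 and 11.2 and MYC2 at 16.8 and 16.1. The double mutant was above arp6 for JAZ9 (log2 difference 0.66) and below it for MYC2 (-1.09). ORA47, outside this list, stood at 0.868 and 1.19 in arp6. The arp6vil1 libraries list 145 and 156 features at 0, against 6651 and 6566 in the arp6 libraries, and the part of this gap in differences from arp6 was not tested.

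Sulfur-starved plants switch on a small set of genes that take up sulfate and recycle sulfur from glucosinolates and glutathione. Of 13 such genes tested, 10 fell in arp6vil1, 0 rose and 3 did not pass, with a median log2 change of -2.58, and 9 of the falls held under every scaling. SDI1, a repressor of glucosinolate synthesis under sulfur lack, had 11.5 and 11.9 scaled RPKM in arp6vil1, against 167 and 120 in WT (log2 change -3.49, SE 0.26, adjusted p = 7.22e-06). LSU1, a small protein induced by low sulfur, had 65.3 and 61.1, against 357 and 432 in WT (log2 change -2.62, SE 0.21, adjusted p = 9.96e-06). GGCT2;1, which recycles glutathione, had 26.7 and 26.9, against 181 and 166 in WT (log2 change -2.65). SHM7, a serine hydroxymethyltransferase of sulfur metabolism, had 8.91 and 9.68, against 113 and 57.4 in WT (log2 change -2.98). BGLU28, a myrosinase-like glucosidase, had 1.52 and 1.42, against 27.7 and 10.4 in WT (log2 change -2.87).

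The enzymes of sulfate reduction changed less. APR1 had 11.3 and 12.2 scaled RPKM in arp6vil1, against 43.5 and 20.3 in WT (log2 change -1.27), and APR2 had a log2 change of 0.18 that did not pass. The root sulfate transporters SULTR1;1 and SULTR1;2 had log2 changes of -0.66 and -0.64 and missed the threshold (adjusted p = 0.0717 and 0.0543). All 13 genes were lower in arp6vil1 than in arp6 (median -3.05), as were 33.2% of all features. In arp6, SDI1 reached 426 and 380 and BGLU28 168 and 141. Against vil1, 10 were lower and 0 higher (median -1.36), where 36.6% of all features were lower and 20.2% higher. SDI1 stood at 84.6 and 83.8 in vil1.

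**Figure D4:**
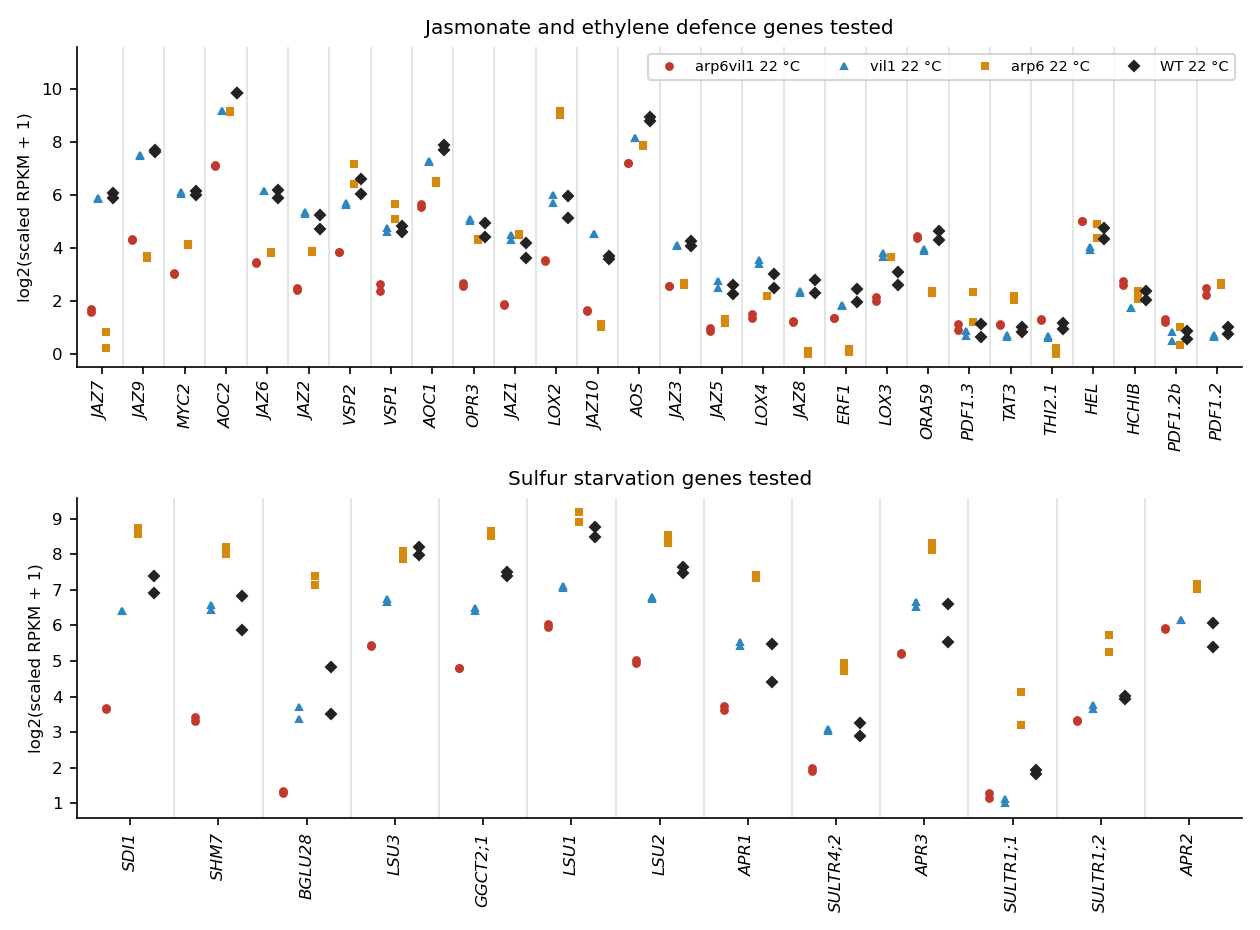
Log2(scaled RPKM + 1) of each jasmonate and ethylene gene (top) and each sulfur gene (bottom) in arp6vil1, vil1, arp6 and WT at 22 °C, 1 point per library, sorted by log2 change. The arp6vil1 points lie under the WT points for most genes, and for most sulfur genes the arp6 points lie highest.

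Rapid-response genes, which wounding, touch and handling induce within minutes, were mostly lower. Of 12 tested, 10 fell, 1 rose and 1 did not pass (median -0.69), and 6 falls held under every scaling. WRKY33, a regulator of pathogen responses, had 2.44 and 2.94 scaled RPKM in arp6vil1, against 23.62 and 14.55 in WT (log2 change -2.41, SE 0.19, adjusted p = 9.59e-06), and overlaps 2 genes. ERF6, an ethylene response factor, had 7.38 and 7.53, against 36.9 and 36.2 in WT (log2 change -2.15, SE 0.09, adjusted p = 7.36e-07). TCH3, a calmodulin-like touch gene, had 9.35 and 8.22, against 50.8 and 19.6 in WT (log2 change -1.74), a wide WT pair. ZAT12, a zinc-finger factor of oxidative stress, went the other way at 69.0 and 68.1 in arp6vil1, against 26.0 and 30.8 in WT (log2 change 1.25, adjusted p = 1.15e-05), and rose under every scaling.

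Salicylic acid, the hormone of defence against biotrophic pathogens, is read here through 26 tested genes. Of these, 7 fell, 3 rose and 16 did not pass (median -0.08), a smaller share of falls than the 39.7% of all features. With median centring 5 fell and 13 rose. Regulators were among the falls. WRKY18 had 1.70 and 1.84 scaled RPKM in arp6vil1, against 11.4 and 6.42 in WT (log2 change -1.79), WRKY70 had 2.17 and 1.78, against 8.58 and 6.16 (log2 change -1.48), and EDS1, a hub of immune signalling, had 1.46 and 1.64, against 3.68 and 4.56 (log2 change -1.001). PCC1, a small pathogen-responsive membrane protein, had 63.3 and 55.9 in arp6vil1, against 10.4 and 23.9 in WT (log2 change 1.84). PR1, the classic marker, stood at 1.13 and 1.24, against 0.634 and 0.778 in WT, and did not pass, whereas it was 20.1 and 28.8 in arp6.

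Of 24 cold and abscisic acid genes tested, 9 fell, 5 rose and 10 did not pass (median -0.18). The share that fell and the median lie near those of all features (39.7% and -0.21), so the counts are not a result about the list, and with median centring 12 rose and 5 fell. Besides RD26, the dehydrin ERD10 had 11.0 and 9.52 scaled RPKM in arp6vil1, against 43.1 and 26.7 in WT (log2 change -1.64), and NCED3, the limiting enzyme of abscisic acid synthesis, had 2.06 and 2.54, against 7.46 and 10.4 (log2 change -1.58). The cold-induced chloroplast protein COR15A had 76.7 and 78.4 in arp6vil1, against 36.0 and 38.3 in WT (log2 change 1.04), and the cold regulator CBF2 had 15.9 and 16.7, against 6.81 and 9.32 (log2 change 0.95). RD29A and RD29B, classic stress reporters, had log2 changes of 0.19 and -0.08 and did not pass.

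The SWR1 and H2A.Z list held 16 tested genes, of which 13 fell, 3 rose and 0 did not pass (median -0.75). The 3 that rose are the H2A.Z genes themselves. HTA9 had 191 and 189 scaled RPKM in arp6vil1, against 82.8 and 88.4 in WT (log2 change 1.14, SE 0.08, adjusted p = 4.92e-06), and it lay above vil1 (77.1 and 71.5) and arp6 (62.1 and 56.4) too. HTA9 overlaps AT1G52750 and rose under every scaling. HTA8 had 8.36 and 9.02, against 5.07 and 5.30 in WT (log2 change 0.65), and HTA11 had a log2 change of 0.40, both short of a call in at least 1 other scaling. SWR1 subunits were among the falls. YAF9A had 3.48 and 3.74, against 7.71 and 7.47 in WT (log2 change -0.90). SWC2 had 1.04 and 1.13, against 2.78 and 3.73 (log2 change -1.02). PIE1, the motor subunit, had 0.784 and 0.953, against 1.81 and 2.51 (log2 change -0.75). By its mean, SWC2 lies between 2 and 5 scaled RPKM, where 69.3% of coding genes fell, and PIE1 in the lowest range. The list also holds INO80, ARP5, NRP1 and NRP2, so its falls are not all SWR1 subunits. Including ARP6, 5 of the 13 falls held under every scaling; with median centring, 5 fell and 3 rose in all.

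Of 24 VEL and Polycomb genes tested, 20 fell, 0 rose and 4 did not pass (median -0.73). With median centring 8 fell and 1 rose (median -0.19, beside 0.30 for all features). VAL1, which guides Polycomb to FLC, had 1.88 and 1.94 scaled RPKM in arp6vil1, against 5.63 and 5.02 in WT (log2 change -1.12, SE 0.08, adjusted p = 7.47e-06). CLF, a H3K27 methyltransferase, had 0.872 and 1.01, against 2.43 and 2.90 in WT (log2 change -0.91), and LHP1, which binds the methylated histone, had 2.81 and 3.04, against 6.04 and 5.53 (log2 change -0.79). The demethylases that remove the mark fell as well, REF6 to 1.04 and 1.13, against 2.66 and 3.06 in WT (log2 change -0.89), and ELF6 to 1.02 and 0.997, against 2.65 and 3.27 (log2 change -0.97). VAL1 and LHP1 lie between 2 and 5 scaled RPKM, the range where most coding genes fell, and under every scaling 8 of the 24 fell. FIE and MSI1, core subunits of Polycomb repressive complex 2, did not pass, nor did VIN3 and VEL1, the relatives of VRN5.

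Polycomb keeps many developmental regulators silent in leaves. Of 17 tested developmental regulators 3 rose, 3 fell and 11 did not pass (median 0.05), and 9 further genes of this list were under the level needed for a test. This balance rests on the scaling, since 14 rose and 2 fell with median centring (median 0.65), and 1 rose and 6 fell on deposited RPKM (median -0.19). The floral organ gene PI had 2.060 and 2.097 scaled RPKM in arp6vil1, against 5.23 and 6.25 in WT (log2 change -1.13), with 2.97 and 2.40 in vil1 and 1.02 and 1.57 in arp6. SEP4 had 1.268 and 1.098, against 3.82 and 3.34 in WT (log2 change -1.07). The boundary gene CUC1 had 3.05 and 3.88 in arp6vil1, against 1.78 and 1.88 in WT (log2 change 0.65), and the meristem gene STM had a log2 change of 0.56. PI and SEP4 fell and CUC1 rose under every scaling.

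Of 33 flowering time genes tested, 21 fell, 3 rose and 9 did not pass (median -0.43), though the median was 0.06 with median centring, and 8 falls and 1 rise held under every scaling. FLC, the main repressor, had 3.07 and 3.08 scaled RPKM in arp6vil1, against 4.25 and 4.37 in WT (log2 change -0.38, SE 0.08, adjusted p = 0.00252). Its direction rests on the scaling, since the log2 change was 0.12 after quantile normalization and 0.11 after median centring, neither past the threshold. The contrast with arp6, where FLC stood at 0.198 and 0.251, was larger (log2 difference 1.74, adjusted p = 1.12e-07). FLC overlaps AT5G01675. SOC1, a promoter of flowering, had 5.23 and 5.22 in arp6vil1, against 9.51 and 10.8 in WT (log2 change -0.84), and stood at 5.67 and 5.21 in vil1, a difference that did not pass (adjusted p = 0.669). FRI had 2.33 and 2.42, against 5.53 and 5.87 in WT (log2 change -0.99), and overlaps 2 genes. Whether FRI acts on FLC in these plants was not tested. The repressors of FT named TEM1 and TEM2 both fell, TEM2 to 76.9 and 77.6, against 143 and 153 in WT (log2 change -0.93), while TOE3 rose to 8.45 and 7.53, against 4.17 and 4.13 (log2 change 0.80). FT itself had 0.761 and 0.680 in arp6vil1 and 0.488 and 0.903 in WT, overlapping groups below the level for a test. Without arp6vil1 replicate 1 or 2 or WT replicate 2, 1 flowering time gene rose.

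The warm and shade list, which holds the growth programme that PIF factors drive, had 17 falls, 4 rises and 2 genes that did not pass among 23 tested (median -0.54). Under every scaling 8 falls and 2 rises held. With median centring 8 fell and 6 rose (median -0.11, beside 0.30 for all features). The shade-induced homeobox gene HB-2 had 2.55 and 2.89 scaled RPKM in arp6vil1, against 17.79 and 14.03 in WT (log2 change -2.18, SE 0.12, adjusted p = 2.14e-06), and was also low in arp6, at 3.05 and 3.36. PIF4, the central factor of warm growth, had 13.2 and 13.3, against 35.3 and 23.9 in WT (log2 change -1.08, SE 0.14, adjusted p = 0.000159), and was lower than in vil1 (40.7 in both libraries) and in arp6 (20.9 and 22.0). PIF5, PIF1, PIF7 and PIF3 fell by 1.24, 1.21, 0.98 and 0.83 on the log2 scale, and HFR1, which restrains PIFs, fell by 1.39. SPT, a bHLH relative of the PIFs that restrains growth, rose to 13.4 and 12.4, against 5.06 and 6.12 in WT (log2 change 1.08), and PAR2, a negative regulator of shade growth, rose to 23.4 and 23.2, against 10.1 and 11.3 (log2 change 1.06).

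Downstream of PIF4 the auxin genes were less settled. YUC8, an auxin synthesis enzyme, had 3.81 and 4.13 scaled RPKM in arp6vil1, against 5.43 and 5.69 in WT (log2 change -0.40, adjusted p = 0.00583), but 0.02 after quantile normalization and 0.06 after median centring. IAA29 had 1.23 and 1.66, against 4.02 and 3.06 in WT (log2 change -0.89, adjusted p = 0.000376), and missed the threshold with median centring (-0.34, adjusted p = 0.0672). IAA19 had 4.41 and 4.21, against 3.33 and 4.06 in WT, and did not pass (log2 change 0.18, adjusted p = 0.157), though it did after quantile normalization (0.68, adjusted p = 0.000415) and after median centring (0.65, adjusted p = 0.000456). In the auxin list 13 of 24 fell and 0 rose (median -0.23), while with median centring 5 fell and 11 rose. IAA2, an early auxin gene, had 4.93 and 6.95, against 48.1 and 25.9 in WT (log2 change -2.40), and the transporter PIN3 had 16.3 and 16.2, against 33.1 and 31.3 (log2 change -0.94), both under every scaling.

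Growth effectors were read by family. Of 25 expansin and xyloglucan enzyme genes, whose products loosen and rebuild the cell wall, 11 rose, 4 fell and 10 did not pass (median 0.29), and 6 rises held under every scaling; on deposited RPKM 6 rose and 8 fell. EXPA1 had 111 and 107 scaled RPKM in arp6vil1, against 42.1 and 45.2 in WT (log2 change 1.303, SE 0.14, adjusted p = 4.13e-05). XTH4 had 251 and 248, against 103 and 110 in WT (log2 change 1.22), and XTH9 had 69.3 and 68.7, against 31.2 and 26.4 (log2 change 1.24). TCH4, the touch-induced member, fell to 67.5 and 65.2, against 224 and 194 in WT (log2 change -1.64). Of 20 SAUR genes 3 rose, 4 fell and 13 did not pass (median -0.22); SAUR16 had 78.3 and 74.3 in arp6vil1, against 21.6 and 27.8 in WT (log2 change 1.598), under every scaling. All 20 SAUR genes were higher in arp6vil1 than in arp6 (median 1.13), as were 49.7% of all features. With median centring 8 SAUR genes rose and 1 fell, and on deposited RPKM 1 rose and 16 fell. Without WT replicate 1, 7 SAUR genes fell, and without WT replicate 2, 2 fell.

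Gibberellin and brassinosteroid genes gave 12 falls, 4 rises and 13 genes that did not pass among 29 (median -0.05), shares near those of all features, of which 39.7% fell and 13.2% rose. Without arp6vil1 replicate 1, 8 of the 29 fell, and without WT replicate 1, 2 rose. The DELLA repressors RGL3, RGL2 and RGL1, which gibberellin removes, fell by 1.29, 1.21 and 0.90 on the log2 scale, and RGL3 had 3.47 and 3.38 scaled RPKM in arp6vil1, against 10.3 and 9.38 in WT. GASA4, a gibberellin-induced peptide, had 57.8 and 58.5, against 29.7 and 32.6 in WT (log2 change 0.88). These 4 held under every scaling, whereas with median centring the whole list had 15 rises and 3 falls.

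Heat shock genes did not move as a block. Of 35 tested, 16 fell, 3 rose and 16 did not pass (median -0.44), a share of falls near the 39.7% of all features. The median was 0.05 with median centring, and 7 falls and 2 rises held under every scaling. HSFA1A, 1 of the factors that start the heat response, had 1.26 and 1.14 scaled RPKM in arp6vil1, against 5.02 and 6.02 in WT (log2 change -1.56, SE 0.10, adjusted p = 3.15e-06), and HSFA1B and HSFA1D fell by 0.98 and 0.97 on the log2 scale. HSP101, the heat-induced disaggregase, had 1.25 and 1.22, against 3.09 and 3.59 in WT (log2 change -0.96). HSP23.6 and HSP70-2 rose under every scaling, HSP70-2 to 10.3 and 10.4, against 6.49 and 5.57 in WT (log2 change 0.69). HSP70-4, a marker of warm temperature, had 16.1 and 16.0, against 24.1 and 13.6 in WT, overlapping groups that did not pass (log2 change -0.17, adjusted p = 0.555). Without WT replicate 2 its log2 change was -0.55 (adjusted p = 0.0153), without WT replicate 1 it was 0.22 (adjusted p = 0.256), and it was -0.61 on deposited RPKM (adjusted p = 0.0234). Against vil1, at 57.4 and 58.1, HSP70-4 was lower in arp6vil1 (log2 difference -1.78, adjusted p = 8.29e-05).

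Chaperones of the endoplasmic reticulum fold secreted proteins. Of 11 tested, 3 fell, 0 rose and 8 did not pass (median -0.29). SDF2 had 8.85 and 8.47 scaled RPKM in arp6vil1, against 16.0 and 14.9 in WT (log2 change -0.77), and CRT2, a calreticulin, had 6.12 and 6.19, against 8.04 and 7.64 (log2 change -0.31, adjusted p = 0.0467). CRT2 lost its call without any 1 of the 4 libraries (log2 change -0.34 to -0.27) and had the opposite sign with median centring (0.13). Set against arp6, 10 of the 11 were lower in arp6vil1 and 1 higher (median -3.63), where 33.2% of all features were lower and 49.7% higher.

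Genes of light signalling had 14 falls, 4 rises and 10 that did not pass among 28 (median -0.43, and 0.03 with median centring). Besides ELIP2, its relative ELIP1 had 19.9 and 21.6 scaled RPKM in arp6vil1, against 8.30 and 9.79 in WT (log2 change 1.12). HY5, which promotes light-grown development, had 6.07 and 6.17, against 11.8 and 14.5 in WT (log2 change -0.99), and COP1, the ligase that destroys HY5 in the dark, had 1.64 and 1.73, against 4.32 and 3.65 (log2 change -0.89). These 4 genes held under every scaling.

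Of 28 circadian clock genes tested, 16 fell, 3 rose and 9 did not pass (median -0.54), and under every scaling 4 fell and 2 rose. With median centring 5 fell and 6 rose (median -0.01, beside 0.30 for all features). GRP7, an RNA-binding protein under clock control, had 1667 and 1657 scaled RPKM in arp6vil1, against 575 and 540 in WT (log2 change 1.57, SE 0.09, adjusted p = 2.04e-06). Its relative GRP8 had 858 and 844, against 344 in both WT libraries (log2 change 1.304). GRP7 had 1601 and 1644 in arp6, a log2 difference from it of 0.03 that did not pass (adjusted p = 0.722), and stood at 713 and 659 in vil1. RVE1, a MYB factor that links clock and auxin, had 1.64 and 1.96 in arp6vil1, against 7.42 and 8.06 in WT (log2 change -1.64). The core genes CCA1, LHY and TOC1 fell by 0.59, 0.49 and 0.62 on the log2 scale, but not under every scaling, and GI, PRR7 and PRR9 did not pass. ELF3 fell by 0.83 but missed the threshold with median centring (-0.34, adjusted p = 0.0522).

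Of 42 nuclear genes of photosynthesis tested, 24 fell, 7 rose and 11 did not pass (median -0.35, and 0.01 with median centring), and 11 falls and 1 rise held under every scaling. LHCB3, a light-harvesting protein, had 1524 and 1558 scaled RPKM in arp6vil1, against 3500 and 3488 in WT (log2 change -1.18, SE 0.07, adjusted p = 2.70e-06), and LHCB2.3 had 209 and 210, against 652 and 576 (log2 change -1.54). PETE1, a plastocyanin, had 50.1 and 52.4, against 133 and 116 in WT (log2 change -1.26). LHCB4.3, a minor antenna isoform, rose to 11.3 and 11.5, against 4.06 and 5.63 in WT (log2 change 1.101). The Rubisco small subunit genes RBCS1A, RBCS1B, RBCS2B and RBCS3B share reads with near-identical copies and rose by 0.26 to 0.44 on the log2 scale, not under every scaling. Without either arp6vil1 library 2 genes of the list rose, in place of 7.

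Chlorophyll synthesis gave 13 falls, 2 rises and 9 that did not pass among 24 genes (median -0.38, and 0.00 with median centring). HEMA1, the first committed enzyme, had 42.3 and 41.5 scaled RPKM in arp6vil1, against 146 and 67.5 in WT (log2 change -1.23), and PORB, a protochlorophyllide reductase, had 49.3 and 51.2, against 138 and 82.7 (log2 change -1.07). For both, WT replicate 1 was well above WT replicate 2, and both WT libraries were above arp6vil1. GLK2, a regulator of chloroplast development, rose to 120 and 119, against 76.0 and 79.9 in WT (log2 change 0.61). Without WT replicate 1, 5 chlorophyll synthesis genes rose.

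Chloroplast genes are read by a plastid-encoded polymerase with nuclear sigma factors and by a nuclear-encoded one. Of 11 nuclear genes for this machinery, 9 fell, 0 rose and 2 did not pass (median -0.89), and 6 held under every scaling. The sigma factor SIG4 had 3.28 and 3.85 scaled RPKM in arp6vil1, against 15.3 and 11.1 in WT (log2 change -1.62, SE 0.15, adjusted p = 1.81e-05), and SIG6 had 4.34 and 4.76, against 14.2 and 9.16 (log2 change -1.16). The polymerase RPOTP had 2.09 and 2.13, against 5.22 and 4.43 in WT (log2 change -0.90). SIG5 had 5.33 and 5.82, against 18.5 and 8.49 in WT (log2 change -1.05, adjusted p = 0.0152), and lost its call without WT replicate 1 (-0.53, adjusted p = 0.104) or without arp6vil1 replicate 1 (-0.998, adjusted p = 0.0681). All 11 were lower than in vil1 and than in arp6, with medians of -1.33 and -2.24. Of all features, 36.6% were lower than in vil1 and 33.2% lower than in arp6.

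Most genes of the chloroplast genome went the opposite way. They and the genes of the mitochondria were grouped by locus prefix alone. The counts and sums therefore do not separate rRNA genes from protein-coding genes. Of 133 chloroplast-encoded genes, 121 rose, 3 fell and 9 did not pass (median 1.71), and 104 rises held under every scaling. They summed to 150400 and 147810 scaled RPKM in arp6vil1, against 42565 and 46772 in WT. The genes ATCG01180, ATCG00950 and ATCG00920, which lie within 1% of another feature in every library and so share reads, had 13343 to 13703 in arp6vil1 and 871 to 1321 in WT. ATCG00220 had 12802 and 14857, against 5565 and 7913 in WT (log2 change 1.05), but -0.34 after quantile normalization. Of 152 mitochondria-encoded genes, 146 rose, 0 fell and 6 did not pass (median 1.42), with 133 rises under every scaling. ATMG01390 had 250 and 252, against 37.6 and 34.5 in WT (log2 change 2.77). For the genes of both organelles, "under every scaling" leaves out the length-trend fit, which did not hold them.

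All 4 nuclear rRNA genes rose, but not to like values. AT3G41768 had 50029 and 48663 scaled RPKM in arp6vil1, against 4087 and 4142 in WT (log2 change 3.58), and lies within 1% of another feature. AT2G01010, which also has a near-identical copy, had 2357 and 36993 in arp6vil1, against 107 and 169 in WT, so the 2 arp6vil1 libraries differed far more than for coding genes. AT2G01020 had 371 and 3698, against 73.8 and 111 in WT, and lost its call without arp6vil1 replicate 2 (log2 change 2.03, adjusted p = 0.113) or without WT replicate 1 (3.39, adjusted p = 0.0684). Of the spliceosomal U2 RNAs, U2.11 had 99.52 and 90.33 in arp6vil1, against 24.2 and 35.3 in WT (log2 change 1.67), and U2.1 and U2.14 rose by 2.04 and 1.98. Whether these total RNA libraries were depleted of rRNA or selected for poly(A) is not given in the sources used here, so the share of unadenylated RNA and a difference in the plants cannot be told apart.

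Anthocyanins are red pigments made by the late branch of flavonoid synthesis. Of 25 flavonoid and anthocyanin genes tested, 11 fell, 1 rose and 13 did not pass (median -0.18, and 0.20 with median centring), and 5 falls and the 1 rise held under every scaling. DFR, the first enzyme of the late branch, had 2.34 and 2.55 scaled RPKM in arp6vil1, against 17.37 and 11.32 in WT (log2 change -2.13, SE 0.32, adjusted p = 0.000312), LDOX had 3.87 and 3.91, against 17.35 and 19.55 (log2 change -1.99), and the activator PAP1 had 3.37 and 3.74, against 15.2 and 16.1 (log2 change -1.87). The vil1 mutant lay between WT and arp6vil1, with DFR at 5.23 and 7.91 and PAP1 at 6.94 and 7.84. Both were lower in arp6vil1 than in vil1 (adjusted p = 0.0129 and 0.00238). The arp6 mutant did not lie between them, with DFR at 41.7 and 22.9 and PAP1 at 21.8 and 13.3. Both were lower in arp6vil1 than in arp6 (log2 differences of -3.22 and -1.99, adjusted p = 8.68e-06 and 5.65e-06). PAP2, a close relative of PAP1, rose to 6.80 and 6.39, against 1.66 and 1.80 in WT (log2 change 1.48). The entry enzyme TT4 had a log2 change of 0.06 and did not pass. Without arp6vil1 replicate 1 or 2, 7 of the 25 flavonoid and anthocyanin genes fell.

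Of 17 senescence and sugar starvation genes, 6 fell, 2 rose and 9 did not pass (median -0.19): the trehalose phosphate synthase homolog TPS8 had 11.5 and 11.0 scaled RPKM in arp6vil1, against 65.2 and 32.2 in WT (log2 change -1.94), and SAG21, a stress-induced mitochondrial protein, had 80.6 and 76.7, against 22.0 and 29.7 (log2 change 1.58). Of 22 iron and phosphate genes, 5 fell, 6 rose and 11 did not pass (median -0.03), against 3 falls and 10 rises with median centring and 10 falls and 2 rises on deposited RPKM. SPX1, a phosphate sensor, had 12.3 and 12.1, against 59.2 and 41.4 in WT (log2 change -1.94), SRG3, a phosphodiesterase of phosphate starvation, fell by 2.05, and MGD3, a galactolipid enzyme of the same response, rose by 1.19. SPX1 was higher in vil1, at 118 and 109. Of 24 glucosinolate genes, 7 rose, 5 fell and 12 did not pass (median 0.14), against 18 rises and 2 falls with median centring and 2 rises and 7 falls on deposited RPKM. MYB28, an activator of the aliphatic branch, had 7.73 and 7.97, against 4.28 and 3.65 in WT (log2 change 0.84). In starch breakdown 1 of 9 genes rose and 1 fell: QQS had 3.21 and 3.25, against 1.09 and 1.43 in WT (log2 change 0.91), with 16.9 and 16.5 in vil1, and BAM3, a beta-amylase, fell by 0.72 on the log2 scale. BAM3 lost its call without WT replicate 1 (-0.54, adjusted p = 0.163) and without arp6vil1 replicate 1 or 2 (adjusted p = 0.117 and 0.0776). Of the 9 starch genes, 0 fell without any 1 of these 3 libraries, 4 fell without WT replicate 2, and 6 fell on deposited RPKM. Of the glucosinolate genes, 3 fell without arp6vil1 replicate 1 or 2 or WT replicate 1, and 4 rose without arp6vil1 replicate 1; 5 senescence genes rose without WT replicate 1, and 6 rose and 4 fell with median centring.

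**Figure D5:**
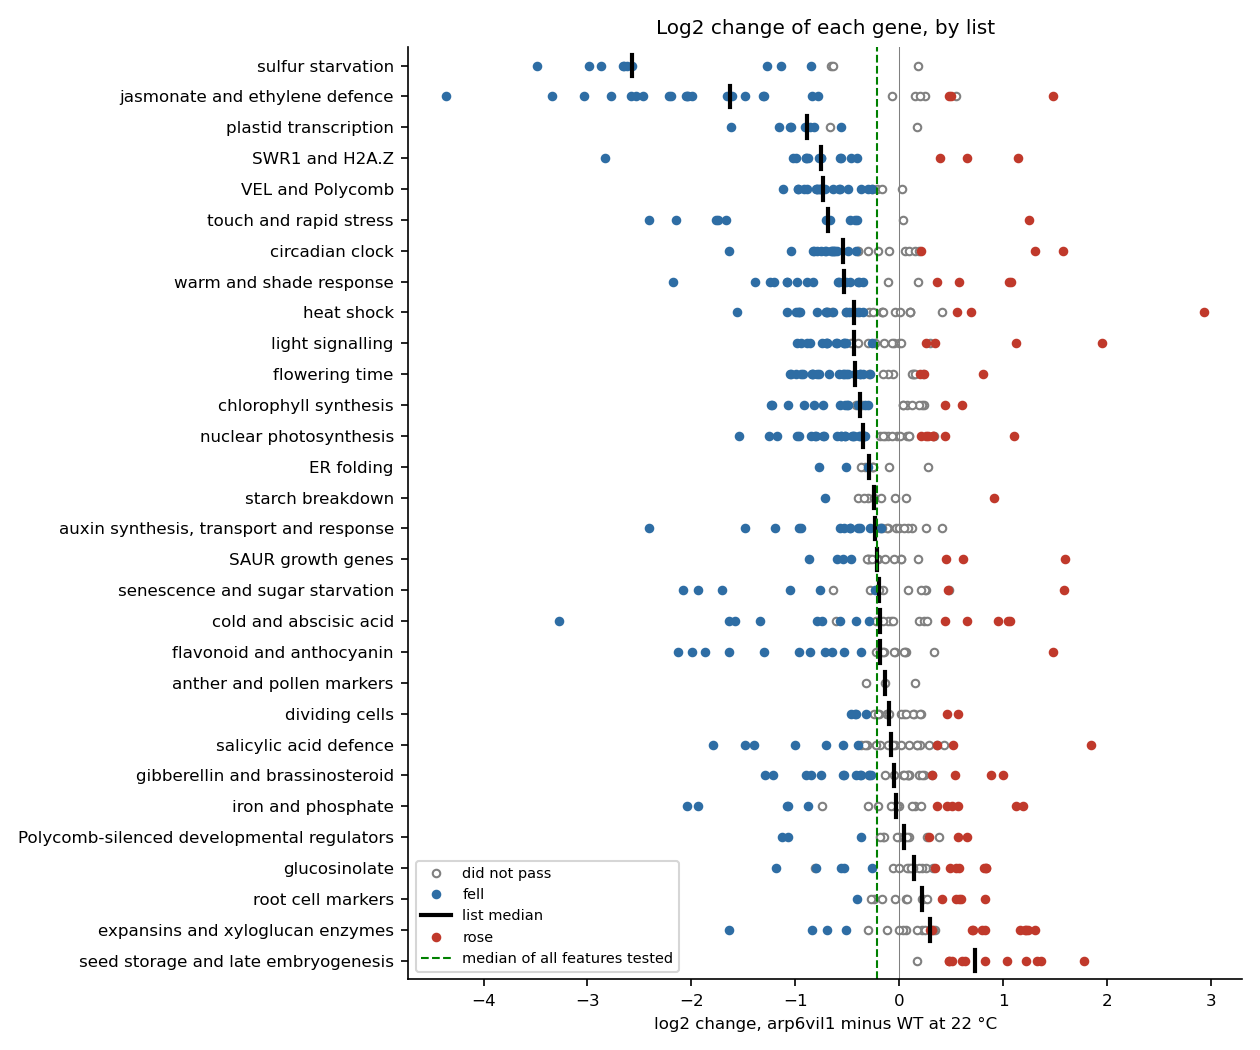
Log2 change between arp6vil1 and WT of every tested gene, 1 row per list sorted by median: red rose, blue fell, open did not pass. Black bars are list medians and the dashed line is the median of all features, -0.21; the sulfur (-2.58) and jasmonate (-1.63) rows lie farthest to the left.

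Markers of other tissues were read as well. Of 12 seed storage and late embryogenesis genes, 11 rose, 0 fell and 1 did not pass (median 0.72), and 4 rises held under every scaling. They summed to 46.9 and 49.1 scaled RPKM in arp6vil1, against 17.0 and 20.1 in WT, and the oil-body protein OLEO2 had 5.29 and 5.50, against 0.853 and 0.878 (log2 change 1.78). Without arp6vil1 replicate 2 or WT replicate 1, 6 of the 12 rose. M17 and BETA-TIP above are seed proteins as well, and the part of residual seed tissue in these rises was not tested. Of 19 genes of dividing cells 2 rose, 4 fell and 13 did not pass (median -0.10), with sums of 75.8 and 76.9 in arp6vil1, against 75.4 and 74.9 in WT. With median centring 15 of these rose and 0 fell, and on deposited RPKM 0 rose and 11 fell. Of 15 root markers 5 rose, 1 fell and 9 did not pass (median 0.22), with sums of 373 and 374, against 429 and 288 in WT, and no root or dividing cell marker held under every scaling. With median centring 10 root markers rose and 0 fell, and on deposited RPKM 0 rose and 3 fell. Of the root markers, 1 rose without arp6vil1 replicate 1 or 2, and 2 rose without WT replicate 1; 2 genes of dividing cells fell without arp6vil1 replicate 2 or WT replicate 2. The 3 anther and pollen genes tested did not pass, with sums of 4.12 and 4.11 in arp6vil1, against 3.79 and 5.64 in WT.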

How the data were processed

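RNA-seq of 14-day-old seedlings was used: 2 libraries each of arp6vil1, vil1 and arp6 at 22 °C, of vil1 and WT at 27 °C, and of WT at 22 °C. The authors deposited 1 table of RPKM values per gene and library; per the submitters' processing notes the build was TAIR10 and the tools, named without role or version, were edgeR, bedtools, HISAT2, Bowtie2, FastQC and SAMtools. RPKM times gene length gave whole reads (tolerance 0.02) for 99.94% to 99.95% of 32548 features with a length in the reference table, and depths of 52.5 to 102.8 M reads. RPKM hides a change in total RNA and depends on what else fills a library. Each library was divided by its median ratio over 6525 coding genes. The test was limma 3.58.1 in R 4.3.3 on log2(scaled RPKM + 1), a scale that understates changes of low genes, with a mean for each of 6 groups over 12 libraries, a variance trend, and Benjamini-Hochberg adjustment over 31414 features; calls are adjusted p under 0.05. The scripts were tested on simulated data.

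Named genes are the 12 largest rises and 12 largest falls among coding genes with a symbol, a mean of 5 scaled RPKM or more in either group, no overlap between groups and no near-identical copy, up to 4 leading members of each list, and 8 fixed genes. Other list members named in the text were chosen after their values were seen. The comparison, its lists (661 genes in 30 lists) and tests were chosen with earlier results of these data known. Another 22 drafted members were left out because locus and symbol did not match in the reference table (assembly TAIR10.1, used for names and spans only), and a list of ribosomal proteins could not be made. Features within 1% of another in every library (1436) are called near-identical. Alternatives were other scalings, pseudocounts, filters, sets of libraries, a replicate block, voom on recovered reads, and 3 settings added after the data were seen (background subtracted, with and without median centring, and scaling genes chosen by mean).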

Additional observations from a re-analysis of the deposited data

How the results depend on the processing

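The counts over all features moved with the scaling and with a minimum change. Rises and falls against WT numbered 1551 and 19164 on deposited RPKM, 7331 and 8264 after quantile normalization, 14298 and 4486 with median centring, 6850 and 7794 with the length trend removed, 7237 and 8626 with scaling genes chosen by mean, 14937 and 5177 with background subtracted and median centring, 1065 and 2447 at an absolute log2 change of 1 or more, and 3269 and 4704 at a mean of 5 scaled RPKM or more. Leaving out 1 library gave 3245 to 4488 rises and 10274 to 12420 falls. Against vil1, rises numbered 2277 on deposited RPKM, 15349 with median centring and 1387 at an absolute log2 change of 1 or more; falls numbered 5851 with median centring, 6726 with the length trend removed and 2550 at a log2 change of 1 or more, and leaving out 1 library gave 4561 to 4758 rises and 9572 to 10241 falls. Against arp6, 7201 rises and 5253 falls had a log2 change of 1 or more, 6822 fell with the length trend removed, and leaving out 1 library gave 14221 to 14471 rises and 9708 to 9930 falls.

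Among 155 named genes, these had the opposite sign under a setting. On deposited RPKM they were CASP1 (-0.032), U5.1b (-0.40), AT3G08275 (-0.031), AT5G00760 (-0.067) and MIR5630a (-0.30). After quantile normalization they were FLC (0.12), YUC8 (0.022), ATCG00220 (-0.34), AT3G08275 (-0.24), AT5G00760 (-0.040), MIR5630b (-0.47) and MIR5630a (-0.51). With median centring they were CRT2 (0.13), SCR (0.026), FLC (0.11), YUC8 (0.063) and AT2G36140 (0.37), with the length trend removed CRT2 (0.048), and with scaling genes by mean AT2G36140 (0.28). With background subtracted and median centring they were CRT2 (0.28), SCR (0.16), FLC (0.15), YUC8 (0.15), AT5G46105 (0.39) and AT2G36140 (0.62). The cause was not tested.

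Counts of rises and falls in 30 lists moved by over 1.5 times in 36 of 60 cases on deposited RPKM, 48 with median centring, 22 after quantile normalization and 27 with the length trend removed. Leaving out 1 library moved 6 to 14 of these 60 counts in the same way. Whether same-numbered libraries of different groups shared a batch is not given and was not tested. Their deviations correlated at -0.263 to 0.236. In WT at 22 and 27 °C, depth was 74.98 and 74.95 M reads for replicate 1, and 61.61 and 61.53 M reads for replicate 2. A replicate block gave 4012 rises and 12216 falls in place of 4150 and 12473. Among the 155 named genes it ended 1 call, that of CRT2 (adjusted p = 0.0636), and it moved some list counts by 1 gene, such as falls in the auxin list, 12 in place of 13. With 2 libraries a group, some small changes of low genes can be missed, though many were called. Between 2 and 5 scaled RPKM, 69.3% of 7271 coding genes fell, with a median log2 change of -0.57.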

Other observations

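Noncoding RNA of the nucleus did not follow 1 direction in arp6vil1 relative to WT. Of 286 small nucleolar RNA genes, which guide rRNA modification, 79 rose and 83 fell, and 39 rises and 44 falls held under every scaling. Of 2880 long noncoding RNA genes 170 rose and 937 fell (median log2 change -0.24), of 285 miRNA genes 19 rose and 94 fell (median -0.32), and of 556 tRNA genes 26 rose and 121 fell (median -0.32). In the snRNA class, which holds the U2 genes described above, 18 of 76 rose and 11 fell. Over all features 13.2% rose and 39.7% fell, with a median of -0.21. Library selection for size or poly(A), which bears on all of these classes, was not tested. Some of these genes overlap another gene, and reads of overlapping genes cannot be told apart. Among the highest snoRNA genes AT3G08275, AT5G00760 and AT5G06825 do so, and among the highest miRNA genes MIR5630a and MIR5630b.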
